A study of Mus musculus with 20 samples.

Results

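The genes of the IL-1 and IL-36 cytokine family were followed in bulk RNA of mouse ear pinnae that had received an intradermal injection of a type 2 cytokine. The 10 members were taken by name from the 16669 genes of the table. They comprise the agonists Il1a, Il1b, Il18, Il36a and Il36g, the antagonists Il1rn, Il36rn and Il1f10, and the receptors Il1r1 and Il1r2. The table lists Ensembl identifiers, which were matched to symbols, and the IL-36 genes stand in the annotation under older symbols of the Il1f series. The tested groups received IL-4, IL-13 or IL-31, each at 0.1 µg/µl in a volume of 10 µl diluted in PBS, and the control group received PBS. Every group was injected in the right ear, so the needle and the fluid are common to all 4 groups of 5 libraries. The sources used here give no strain, genotype, sex, age or time of harvest, and they do not say whether each library came from its own mouse, so the p-values measure the spread between these 20 libraries.

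IL-1α and IL-1β signal through the receptor encoded by Il1r1 together with an accessory chain, and they start an NF-κB response that recruits neutrophils. IL-1α is stored by keratinocytes, whereas IL-1β and IL-18 are made as precursors and cleaved by caspase-1 in inflammasomes. The IL-36 cytokines are products mainly of the epidermis, act through a receptor of their own, and are known in skin for their part in pustular and plaque psoriasis. The family carries its own brakes: the antagonists encoded by Il1rn and Il36rn occupy the receptors, and Il1r2 encodes a decoy receptor that binds IL-1 without signalling.

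Most of the family lies together in the mouse genome (GRCm38). Il36g (24186476 to 24193568), Il36a (24215418 to 24225702), Il36rn (24276954 to 24283426), Il1f10 (24291196 to 24293820) and Il1rn (24336853 to 24351494) follow each other on the plus strand of chromosome 2. Il1a (129299610 to 129309972) and Il1b (129364570 to 129371139) lie farther along chromosome 2 on the minus strand. Il1r2 (40074079 to 40125231) and Il1r1 (40225080 to 40317257) are neighbours on chromosome 1, and Il18 (50554827 to 50581840) is on chromosome 9. The 250 bases before the annotated start are shown for the genes whose levels moved most between libraries and for which a RefSeq promoter (GRCm38.p6) with that start was at hand. Il1b stands for the pattern that followed neutrophil transcripts, as Cd14 of the monocyte and macrophage list also did. The other 3 stand for the pattern that followed epidermal transcripts. Capitals mark matches to the motifs named in the paragraph after the sequences.
Il1b, chr2:129371140-129371389, minus strand: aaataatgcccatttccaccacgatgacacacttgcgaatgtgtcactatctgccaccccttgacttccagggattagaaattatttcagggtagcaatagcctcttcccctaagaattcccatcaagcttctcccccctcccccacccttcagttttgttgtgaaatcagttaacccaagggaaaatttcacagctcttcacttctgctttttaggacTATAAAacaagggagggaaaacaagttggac
Il36g, chr2:24186226-24186475, plus strand: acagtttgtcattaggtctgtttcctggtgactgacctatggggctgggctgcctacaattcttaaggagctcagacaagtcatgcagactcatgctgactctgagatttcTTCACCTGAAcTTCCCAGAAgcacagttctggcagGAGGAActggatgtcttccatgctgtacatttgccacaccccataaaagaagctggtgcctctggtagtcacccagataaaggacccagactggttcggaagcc
Il36rn, chr2:24276704-24276953, plus strand: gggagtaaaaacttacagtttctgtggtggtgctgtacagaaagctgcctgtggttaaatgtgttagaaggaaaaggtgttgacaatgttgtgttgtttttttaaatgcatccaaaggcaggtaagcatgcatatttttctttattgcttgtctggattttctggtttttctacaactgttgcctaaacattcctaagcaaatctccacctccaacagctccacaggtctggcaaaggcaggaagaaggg
Il1f10, chr2:24290946-24291195, plus strand: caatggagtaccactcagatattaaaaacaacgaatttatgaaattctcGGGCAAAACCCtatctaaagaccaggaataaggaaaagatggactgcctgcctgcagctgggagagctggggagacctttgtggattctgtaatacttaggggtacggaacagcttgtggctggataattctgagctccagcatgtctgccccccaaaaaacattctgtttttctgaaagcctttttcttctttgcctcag

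Promoters were at hand for 6 of the 10 members, and each was searched on both strands for 6 motifs. Positions count back from the annotated start, with -1 as the last base before it, and shares are of the 32851 promoters of the same length. The TATA box was searched as TATAAA, held by 12.4% of promoters, and stood at -31 in Il1b and at -32 in Il1a. The AP-1 motif was searched as TGANTCA (6.75%) and stood at -12 in Il1a. An NF-κB-like motif was searched as GGGNNNNNCC (45.8%) and stood in Il1f10 at -201 and, overlapping on the other strand, at -200. The spacing read by STAT6 was searched as TTCNNNNGAA (5.85%) and that read by STAT3 as TTCNNNGAA (7.02%). In Il36g the first of these stood at -139 and the other at -128. A PU.1-type motif was searched as GAGGAA (23.3%) and stood at -104 in Il36g and at -41 in Il1a. The windows of Il36rn and Il1r1 held none of these letters. A match describes the sequence and does not show binding.

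Values are log2 CPM, read counts scaled to library size on a log2 scale with a small offset. Effective depth, estimated from the step between low values, was 6.1 to 23.73 M reads (M, mega) per library with a median of 12.96 M. By that estimate 3 reads corresponded to 0.126 to 0.492 CPM. The basal keratin gene Krt5, a marker of skin, stood at 13.0 to 13.8 log2 CPM in the 20 libraries. Libraries stood apart in several marker lists, of which the neutrophil list did so in all 4 groups. Its score, the mean centred level of 12 neutrophil genes, was above 0 in IL-4 library 4, IL-13 libraries 1 and 3, IL-31 libraries 1, 3 and 4, and PBS libraries 1, 3 and 5, where it was 0.31 to 3.33, and was -2.37 to -0.92 in the other 11. The summed level of those 12 genes was 11.3 to 251 CPM in IL-4 libraries, 8.61 to 595 CPM in IL-13 libraries, 7.42 to 388 CPM in IL-31 libraries and 18.8 to 896 CPM in PBS libraries. Among them S100a8 ranged from -1.27 to 7.56 log2 CPM, while Retnlg, Mmp8, Cd177, Stfa2l1, Trem1 and Ltf were at the lowest value of the table in 2 to 7 libraries each. A score of 14 cornified epidermis genes was -2.28 to -1.43 in PBS libraries 1, 2 and 3 and -0.35 to 1.16 in the other 17, so the low libraries were all PBS. The summed level of 6 skeletal muscle genes was 131 to 1659 CPM in IL-4 libraries, 307 to 1923 CPM in IL-13 libraries, 758 to 3454 CPM in IL-31 libraries and 3174 to 10717 CPM in PBS libraries, so every PBS library was above every IL-4 and IL-13 library. The summed level of 15 monocyte and macrophage genes was 348 to 527 CPM in IL-4 libraries and 706 to 1569 CPM in PBS libraries. That sum was 350 to 774 CPM in IL-13 libraries and 504 to 839 CPM in IL-31 libraries, which both reached the PBS range. The summed level of 5 endothelial genes was 53.1 to 92.2 CPM in IL-13 libraries and 96.1 to 154 CPM in PBS libraries. In bulk tissue, fewer cells of a type and less RNA per cell cannot be told apart.

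Against PBS, IL-4 and IL-13 raised the same 2 members, Il1f10 and Il36rn, and IL-31 raised Il1f10. No member fell. The shares of all 16461 tested genes that changed were 17.8% for IL-4 (2938 genes), 19.7% for IL-13 (3250 genes) and 6.38% for IL-31 (1050 genes), so 2, 2 and 1 of 10 members lay near those shares. A gene was called changed at a Benjamini-Hochberg adjusted p under 0.05 in limma over all tested genes, and all 10 members passed the filter on low values. No member had its 5 cytokine libraries all above or all below the 5 PBS libraries. Of all genes, 2.64%, 2.52% and 2.93% lay wholly above PBS and 5.89%, 5.01% and 1.43% wholly below it with IL-4, with IL-13 and with IL-31. The median log2 fold change over the 10 members was 0.44 for IL-4, 0.58 for IL-13 and 0.50 for IL-31, and over all genes -0.02, -0.03 and -0.04. In each comparison 7 of 10 members had a positive difference, where 48.0%, 46.7% and 44.2% of all genes did. The 3 comparisons share the PBS libraries and are not independent of each other. Without PBS libraries 1, 2 and 3, 0 members passed in any of the 3 comparisons, where 1200 of all genes passed for IL-4, 385 for IL-13 and 0 for IL-31. When each comparison was fitted to only its own 10 libraries, 0 members passed. The count over all genes in those smaller fits is not given here, so that 0 cannot be read as particular to the members.

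**Figure D1:**
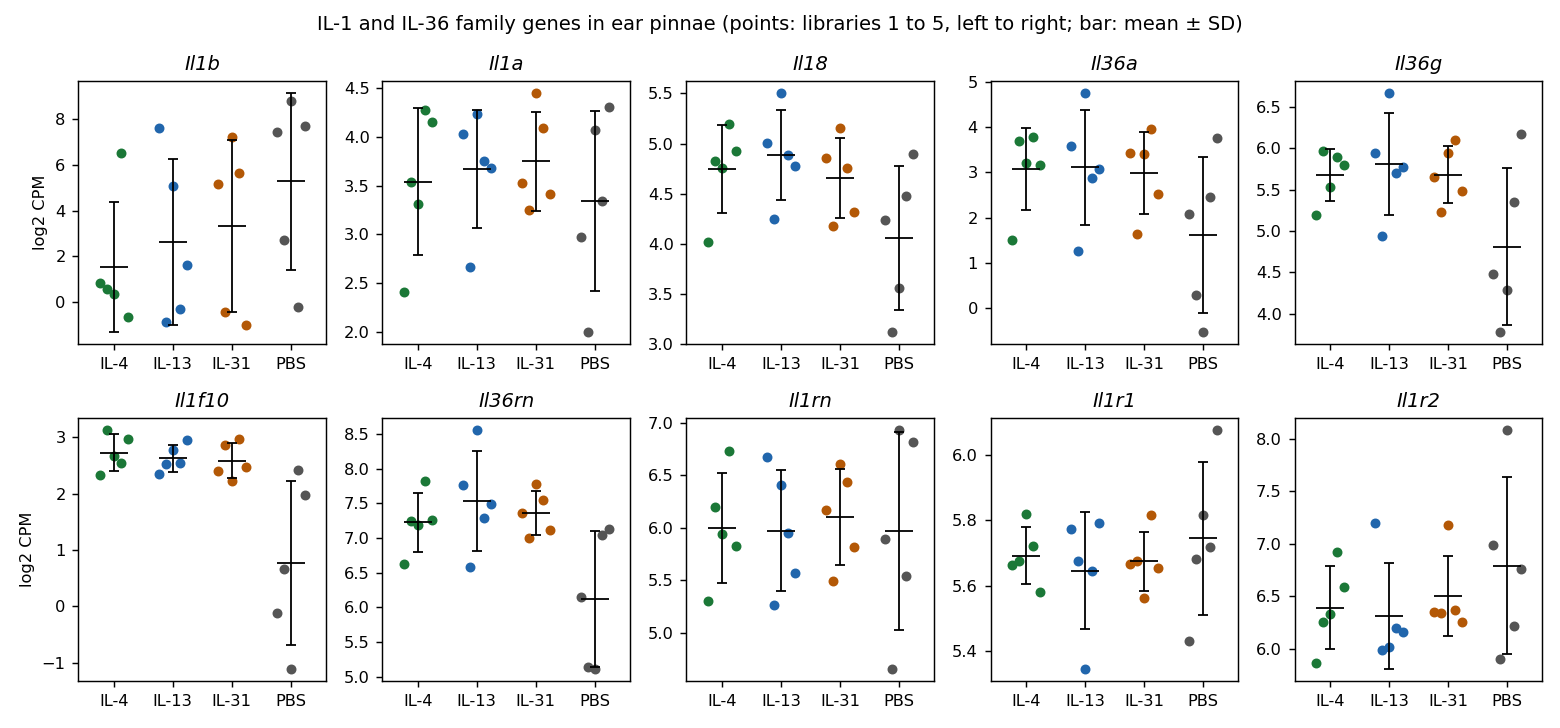
Level of each member in log2 CPM (vertical axis, scaled per gene) in IL-4, IL-13, IL-31 and PBS ears. Points are libraries 1 to 5 from left to right and bars are the mean ± SD (n = 5). Il1b ran from -0.99 to 8.80 across the libraries, Il1r1 from 5.34 to 6.08, and in the Il1f10 panel 3 PBS points lie at or below 0.67.

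Il1b, the secreted agonist made mainly by myeloid cells, was the most variable member. It had 0.85, 0.59, 0.35, 6.54 and -0.63 log2 CPM in IL-4 libraries 1 to 5, and 7.62, -0.88, 5.07, -0.31 and 1.63 log2 CPM in IL-13 libraries. It had 5.19, -0.44, 7.24, 5.63 and -0.99 log2 CPM in IL-31 libraries, and 7.43, 2.70, 8.80, -0.22 and 7.69 log2 CPM in PBS libraries. Every group held both high and low libraries, so all groups overlapped. The log2 difference from PBS was -3.74 ± 2.02 (SE) for IL-4, with a 95% interval of -7.95 to 0.47 and a limma adjusted p of 0.216. It was -2.65 for IL-13 (limma adjusted p = 0.374) and -1.95 for IL-31 (limma adjusted p = 0.56), so none passed. Il1b was 5.07 to 8.80 log2 CPM in the 9 libraries with a neutrophil score above 0 and -0.99 to 2.70 log2 CPM in the other 11, with no overlap. The same split was seen in Cd14, of the monocyte and macrophage list, at 5.12 to 8.89 against 2.24 to 3.34 log2 CPM. Ltf, of the neutrophil list, did not follow it and was highest, at 3.16 log2 CPM, in IL-13 library 4, whose score was -1.60. The part of neutrophil or other myeloid content in the Il1b values was not tested. With the neutrophil score as a covariate, the Il1b difference was 0.00 for IL-4 (limma adjusted p = 1.0), -0.13 for IL-13 (limma adjusted p = 0.872) and 0.37 for IL-31 (limma adjusted p = 0.638). In IL-4 library 5 the Il1b value rested on about 3 reads. Il1bos, a gene on the opposite strand that overlaps Il1b, was at 0.47 to 3.19 log2 CPM, and reads of the 2 genes cannot be told apart without a stated strand setting. Il1a, Il1r2 and Il18 also overlap genes of the opposite strand, Gm14023, Gm16894 and Bco2, which lay at least 1.78, 5.30 and 1.83 log2 CPM below them in every library.

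Il1a, the agonist stored in keratinocytes, averaged 3.54 ± 0.75 log2 CPM in IL-4 ears, 3.67 ± 0.60 in IL-13 ears, 3.75 ± 0.50 in IL-31 ears and 3.34 ± 0.92 in PBS ears (SD, n = 5 each). The groups overlapped, with the lowest value in PBS library 2 at 2.00 and the highest in IL-31 library 3 at 4.45. Its log2 difference from PBS was 0.20 for IL-4 (95% interval -0.66 to 1.06), 0.33 for IL-13 (-0.52 to 1.19) and 0.41 for IL-31 (-0.45 to 1.27), and none passed the limma test. Il1a was 2.97 to 4.45 log2 CPM in libraries with a neutrophil score above 0 and 2.00 to 4.15 in the others, a wide overlap that sets it apart from Il1b.

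The IL-36 agonist Il36g, which activates keratinocytes and dendritic cells, had 5.19, 5.97, 5.53, 5.89 and 5.79 log2 CPM in IL-4 libraries and 5.95, 4.94, 6.67, 5.70 and 5.78 in IL-13 libraries. It had 5.66, 5.23, 5.94, 6.10 and 5.48 log2 CPM in IL-31 libraries and 4.48, 3.77, 4.28, 5.34 and 6.17 in PBS libraries. PBS libraries 1, 2 and 3 lay below all 17 others and PBS library 5 was among the highest. The log2 difference was 0.87 ± 0.35 (SE) for IL-4 (limma adjusted p = 0.0941), 1.00 ± 0.35 for IL-13 (limma adjusted p = 0.051) and 0.87 ± 0.35 for IL-31 (limma adjusted p = 0.138). None passed, although each passed when PBS library 5 was left out, and that for IL-13 also without IL-13 library 2 or PBS library 4.

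Il36a is another IL-36 agonist of the epidermis. It had 1.52, 3.69, 3.20, 3.78 and 3.17 log2 CPM in IL-4 libraries, 3.57, 1.26, 4.75, 2.88 and 3.08 in IL-13 libraries, 3.42, 1.64, 3.40, 3.95 and 2.52 in IL-31 libraries, and 2.08, 0.30, -0.52, 2.46 and 3.77 in PBS libraries. The SD within groups was 0.91 to 1.72 log2, and PBS libraries 2 and 3, but no other PBS library, lay below every cytokine library. The log2 difference was 1.46 ± 0.71 (SE) for IL-4 (limma adjusted p = 0.168), 1.49 ± 0.71 for IL-13 (limma adjusted p = 0.147) and 1.37 ± 0.71 for IL-31 (limma adjusted p = 0.246). Those for IL-4 and IL-13 passed without PBS library 5.

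Il18, whose precursor is present in resting keratinocytes, had 4.02, 4.83, 4.75, 5.19 and 4.93 log2 CPM in IL-4 libraries, 5.00, 4.25, 5.50, 4.88 and 4.78 in IL-13 libraries, 4.86, 4.18, 5.16, 4.76 and 4.32 in IL-31 libraries, and 4.23, 3.12, 3.56, 4.48 and 4.90 in PBS libraries. PBS libraries 2 and 3 were lower than all others, and the remaining PBS libraries lay within the cytokine range. The log2 difference was 0.69 ± 0.30 (SE) for IL-4 (limma adjusted p = 0.119), 0.83 ± 0.30 for IL-13 (limma adjusted p = 0.0574) and 0.60 ± 0.30 for IL-31 (limma adjusted p = 0.23). Il18 passed for IL-4 without PBS library 5, and for IL-13 without IL-13 library 2, PBS library 4 or PBS library 5.

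Il1f10 encodes IL-38, a family member described as an antagonist that binds the IL-36 receptor. It had 2.32, 3.13, 2.66, 2.54 and 2.97 log2 CPM in IL-4 libraries and 2.35, 2.52, 2.78, 2.54 and 2.95 in IL-13 libraries. It had 2.39, 2.86, 2.23, 2.97 and 2.47 log2 CPM in IL-31 libraries and -0.11, 0.67, -1.11, 2.41 and 1.97 in PBS libraries. The 15 cytokine libraries were tightly grouped, PBS libraries 1, 2 and 3 were far below them, PBS library 5 was just below them and PBS library 4 lay among them. The SD of Il1f10 was 1.45 log2 in PBS libraries and 0.24 to 0.33 log2 in the cytokine groups. The model shares a spread per gene between the groups, so its SE understates the spread in PBS. Il1f10 rose by 1.96 ± 0.45 log2 (SE) with IL-4 (95% interval 1.02 to 2.90, limma adjusted p = 0.00658), a 3.88-fold rise. With IL-13 it rose by 1.86 ± 0.45 log2 (limma adjusted p = 0.00805), and with IL-31 by 1.82 ± 0.45 log2 (limma adjusted p = 0.0269). The IL-4 and IL-13 calls held when any 1 library was left out. The IL-31 call was lost without IL-31 library 3, 4 or 5 or PBS library 1, 2 or 3, with limma adjusted p-values of up to 0.076. The PBS level rested on few reads, about 7, 16 and 4 in PBS libraries 1, 2 and 3.

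Il36rn encodes the IL-36 receptor antagonist. It had 6.62, 7.24, 7.19, 7.81 and 7.26 log2 CPM in IL-4 libraries and 7.76, 6.58, 8.56, 7.29 and 7.48 in IL-13 libraries. It had 7.35, 6.99, 7.77, 7.54 and 7.12 log2 CPM in IL-31 libraries and 6.15, 5.14, 5.11, 7.04 and 7.13 in PBS libraries. PBS libraries 1, 2 and 3 were below all others, and PBS libraries 4 and 5 lay inside the cytokine range. The SD was 0.98 log2 in PBS libraries and 0.42, 0.72 and 0.32 log2 in IL-4, IL-13 and IL-31 libraries, which the model pools. Il36rn rose by 1.42 ± 0.38 log2 (SE) with IL-13 (2.68-fold, limma adjusted p = 0.0134), and no single library ended that call. It rose by 1.11 ± 0.38 log2 with IL-4 (2.16-fold, limma adjusted p = 0.0476), a call lost without IL-4 library 2, 3, 4 or 5 or PBS library 1, 2 or 3 (limma adjusted p up to 0.139). With IL-31 the difference was 1.24 ± 0.38 log2 and missed the threshold (limma adjusted p = 0.0549), which it passed without PBS library 4 or 5.

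**Figure D2:**
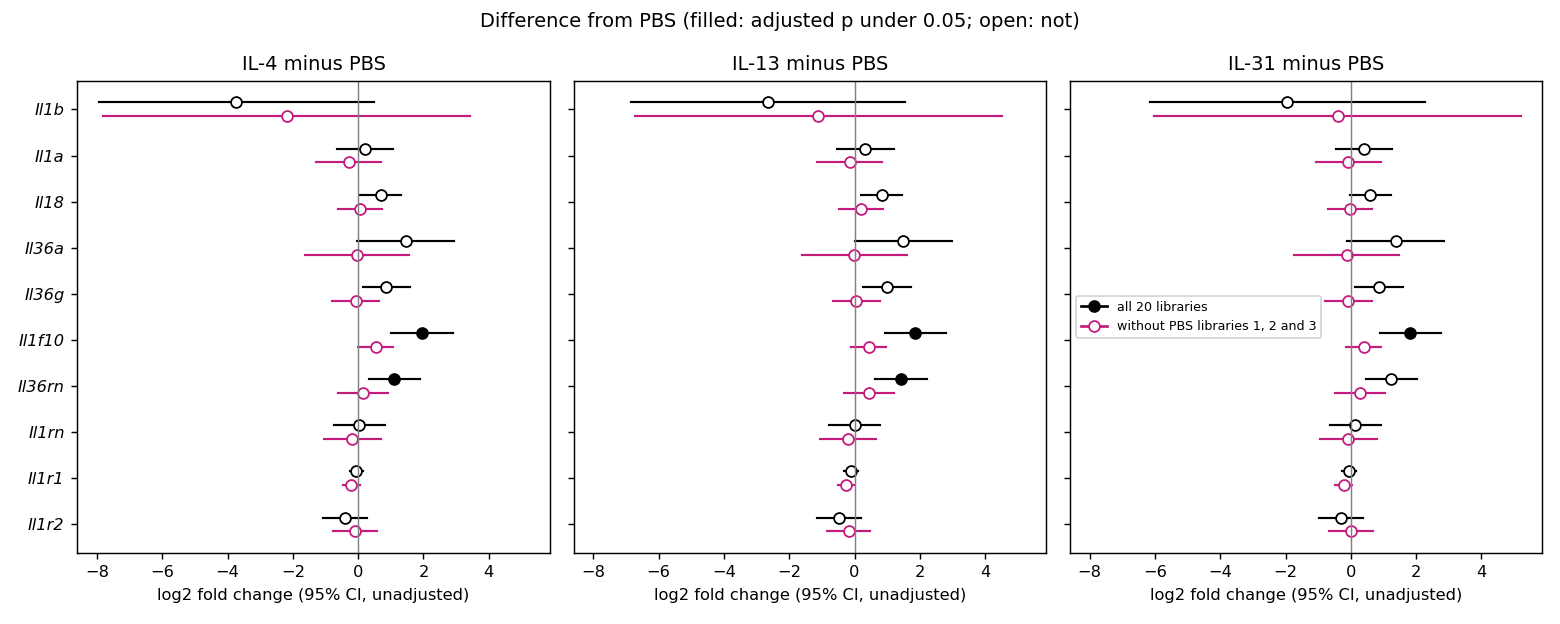
Log2 fold change of each member against PBS (horizontal axis, with unadjusted 95% intervals) for each cytokine, from all 20 libraries (black) and without PBS libraries 1, 2 and 3 (magenta). Filled points passed the adjusted p threshold of 0.05. Il1f10 lies at 1.82 to 1.96 in black and at 0.39 to 0.53 in magenta.

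The 5 members of the epidermal pattern shared their low PBS libraries with the cornified epidermis genes. In PBS libraries 1, 2 and 3, Il36rn was 5.11 to 6.15 log2 CPM against 6.58 to 8.56 in the other 17 libraries, Il36g 3.77 to 4.48 against 4.94 to 6.67, and Il1f10 -1.11 to 0.67 against 1.97 to 3.13. Il36a was -0.52 to 2.08 log2 CPM in the same 3 libraries against 1.26 to 4.75 in the other 17, and Il18 3.12 to 4.23 against 4.02 to 5.50, with overlap for both. Of the 14 cornified epidermis genes, 8 rose with IL-4, 11 with IL-13 and 9 with IL-31, with median log2 fold changes of 1.34, 1.54 and 1.42. Of 7 basal epidermis genes 2, 1 and 1 rose. Of all genes 8.22%, 9.94% and 5.18% rose in these comparisons. Without these 3 PBS libraries the Il1f10 difference was 0.53 for IL-4 (95% interval 0.00 to 1.06, limma adjusted p = 0.2), 0.43 for IL-13 (limma adjusted p = 0.368) and 0.39 for IL-31 (limma adjusted p = 0.71). The Il36rn difference was then 0.14, 0.45 and 0.27, with limma adjusted p-values of 0.844, 0.548 and 0.858, from 2 PBS libraries. With the cornified epidermis score as a covariate, Il36rn differed by -0.12 for IL-4, -0.05 for IL-13 and -0.15 for IL-31, Il1f10 by 0.85, 0.54 and 0.56 in the same comparisons, and none passed. The part of epidermal content in these differences was not tested beyond those values.

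**Figure D3:**
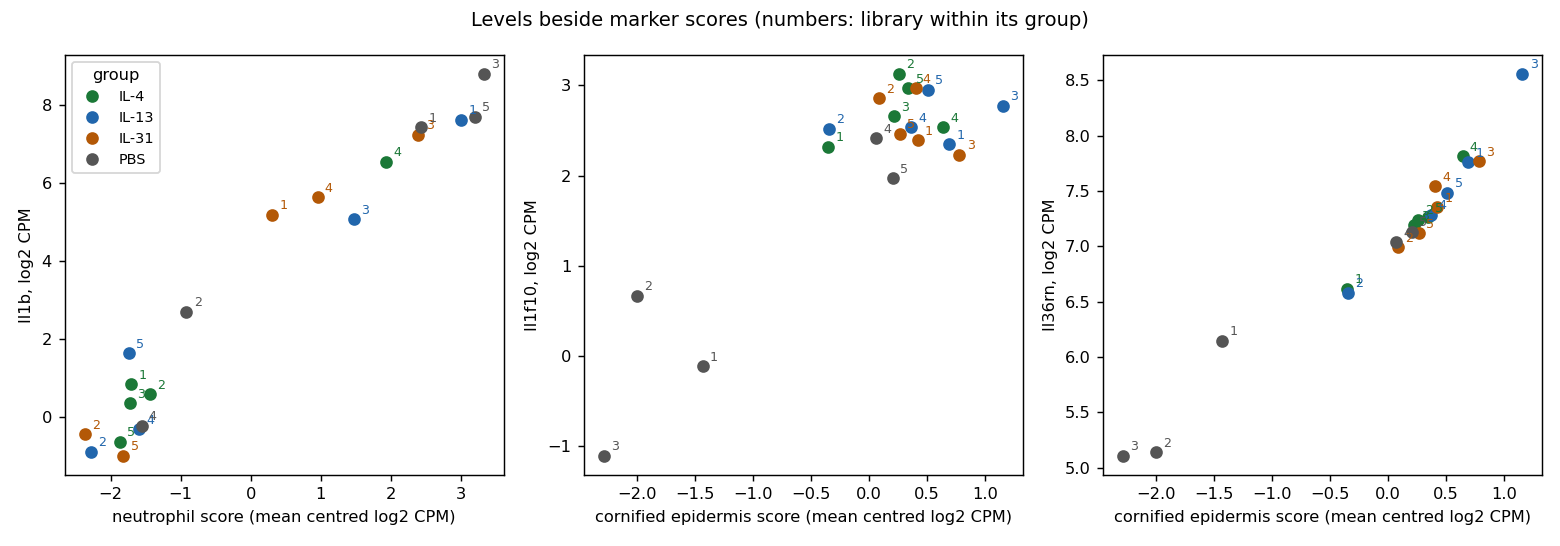
Level of Il1b against the neutrophil score (left), and of Il1f10 (middle) and Il36rn (right) against the cornified epidermis score, in log2 CPM, 1 point per library, numbered within its group and coloured by group. Il1b splits at a score of 0 into libraries of at least 5.07 and of at most 2.70, and PBS libraries 1, 2 and 3 stand alone at scores of -2.28 to -1.43.

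Il1rn, the IL-1 receptor antagonist, which keratinocytes and myeloid cells both make, had 5.30, 6.20, 5.95, 6.73 and 5.83 log2 CPM in IL-4 libraries, 6.67, 5.27, 6.41, 5.95 and 5.57 in IL-13 libraries, 6.16, 5.49, 6.61, 6.43 and 5.82 in IL-31 libraries, and 5.90, 4.66, 6.93, 5.54 and 6.81 in PBS libraries. The groups overlapped throughout, and the lowest and the highest values were both PBS. Its log2 difference was 0.03 for IL-4 (95% interval -0.74 to 0.81), 0.01 for IL-13 (-0.77 to 0.78) and 0.14 for IL-31 (-0.64 to 0.91). Il1rn was 5.90 to 6.93 log2 CPM where the neutrophil score was above 0 and 4.66 to 6.20 elsewhere.

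Il1r1, the signalling receptor, was the steadiest member, at 5.69 ± 0.09 log2 CPM in IL-4 ears, 5.65 ± 0.18 in IL-13 ears, 5.67 ± 0.09 in IL-31 ears and 5.74 ± 0.23 in PBS ears (SD, n = 5 each). Its log2 differences of -0.05, -0.10 and -0.07 had 95% intervals that stayed within -0.31 and 0.16. Il1r2, the decoy receptor, had 5.86, 6.26, 6.33, 6.92 and 6.59 log2 CPM in IL-4 libraries, 7.20, 5.99, 6.02, 6.20 and 6.16 in IL-13 libraries, 6.35, 6.34, 7.18, 6.37 and 6.26 in IL-31 libraries, and 6.99, 5.90, 8.09, 6.22 and 6.76 in PBS libraries. The highest Il1r2 library in each group was one with a neutrophil score above 0. Il1r2 was 6.02 to 8.09 log2 CPM in libraries with such a score and 5.86 to 6.59 elsewhere, so the ranges overlapped. The log2 difference of Il1r2 from PBS was -0.40 for IL-4 (95% interval -1.07 to 0.27), -0.48 for IL-13 (-1.15 to 0.19) and -0.29 for IL-31 (-0.96 to 0.38), and none passed the limma test.

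Per kilobase of annotated exon, the order of mean log2 CPM over the 20 libraries was Il1r2 at 5.57, Il36rn at 4.89, Il36g at 4.77, Il18 at 4.54, Il1rn at 3.54, Il1f10 at 3.07, Il1r1 at 3.02, Il36a at 2.88, Il1a at 2.59 and Il1b at 2.26. Il1r2 exceeded Il36rn in 18 libraries, Il36g exceeded Il18 in 18 and Il18 exceeded Il1rn in 19. Neighbours that did not separate were Il36rn and Il36g, with the first above in 14 libraries, Il1rn and Il1f10 (11), Il1r1 and Il36a (8) and Il1a and Il1b (10). The order was not the same in each group. By group mean per kilobase, Il1b was last in IL-4 ears at 0.61, in IL-13 ears at 1.70 and in IL-31 ears at 2.39, but next after Il1r2 in PBS ears, at 4.35 against 5.86, with an Il1b SD of 3.86 there. In PBS ears Il36g at 4.09, Il18 at 4.01 and Il36rn at 3.95 lay close together, and Il1f10 was last at 1.66. Il1f10 was above Il1r1 in 16 libraries, which were all 15 cytokine libraries and 1 PBS library.

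The balance of antagonist over agonist was read as a log2 ratio of CPM per kilobase within each library. Il1rn over Il1b had a median of 4.06 in IL-4 ears (range -1.35 to 4.92), 2.40 in IL-13 ears (-2.49 to 4.72), -0.56 in IL-31 ears (-2.17 to 5.27) and -2.42 in PBS ears (-3.40 to 4.23). The ratio was below 0 in the 9 libraries with a neutrophil score above 0 and in no other. Il1rn over Il1a was above 0 in every library, at 0.19 to 1.41 in IL-4 ears, 0.40 to 1.16 in IL-13 ears, 0.67 to 1.15 in IL-31 ears and 0.71 to 1.44 in PBS ears. Il36rn over Il36g averaged 0.10 ± 0.25 in IL-4 ears, 0.28 ± 0.12 in IL-13 ears, 0.23 ± 0.15 in IL-31 ears and -0.14 ± 0.40 in PBS ears (SD, n = 5 each). These ratios all overlapped between groups and were not tested.

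**Figure D4:**
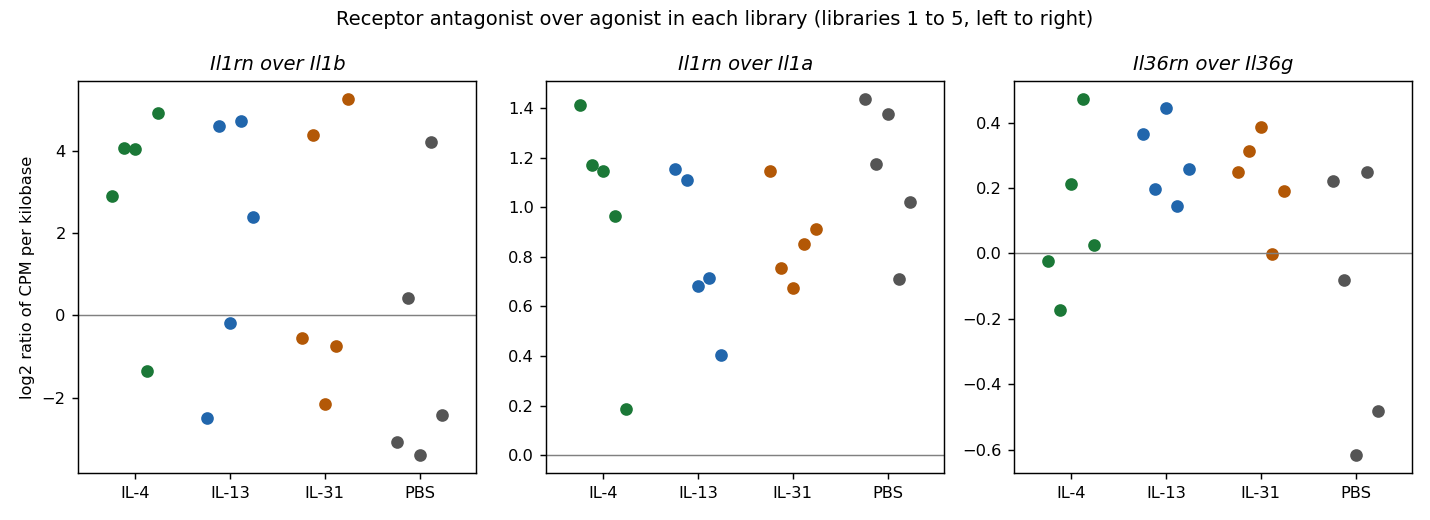
Log2 ratio of CPM per kilobase of an antagonist over an agonist gene in each library (vertical axis, scaled per panel), by group, with libraries 1 to 5 from left to right and a line at equal levels. Il1rn over Il1b spans -3.40 to 5.27, while Il36rn over Il36g spans -0.62 to 0.47.

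For the members whose SD over the 20 libraries was at least 1 log2, the 3 genes of most similar profile were taken by the root mean square difference between centred log2 CPM values. For Il1b these were Cxcl2, a chemokine that attracts neutrophils (0.42), Acod1, which makes itaconate in activated myeloid cells (0.47), and Trem1, an amplifying receptor of myeloid cells (0.59). For Il36a they were Slc34a2, a phosphate transporter (0.37), Cnfn, a protein of the cornified envelope (0.46), and Trex2, an exonuclease of keratinocytes (0.47). For Il1f10 they were Lce1l (0.36) and Lce1a1 (0.40), late cornified envelope genes, and Slurp1, a secreted keratinocyte protein (0.37). The Lce genes are near-identical copies, so their own levels are uncertain. These likenesses are descriptions over libraries that fall into clusters.

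Among the other ligands, Il36b, the remaining IL-36 agonist, rose with IL-4 by 1.80 ± 0.55 log2 (SE, limma adjusted p = 0.0279) and with IL-13 by 2.05 ± 0.55 log2 (limma adjusted p = 0.0136). With IL-31 the difference was 1.75 ± 0.55 log2 (limma adjusted p = 0.0601). Il36b had 2.73, 0.58 and 1.43 log2 CPM in PBS libraries 1, 2 and 3, below all other libraries, as with Il36rn and Il36g. The IL-4 call was lost without IL-4 library 2, 3, 4 or 5 or PBS library 2 or 3. Il33, an alarmin of epithelial nuclei, differed by 0.16, 0.24 and 0.17 log2 and did not pass. Of 7 receptor and binding protein genes, Il1rl1, which encodes the IL-33 receptor, fell by 1.65 ± 0.40 log2 with IL-4 (limma adjusted p = 0.00907) and by 1.32 ± 0.40 log2 with IL-13 (limma adjusted p = 0.027), the second call being lost without IL-13 library 4 or 5 or PBS library 1. Il1rl2, the IL-36 receptor gene, differed by 0.29 log2 for IL-4 (95% interval 0.02 to 0.55), 0.24 for IL-13 (-0.02 to 0.51) and 0.15 for IL-31 (-0.12 to 0.41) and did not pass.

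Of 16 adaptor and kinase genes, 3 rose and 1 fell with IL-4, 4 rose with IL-13 and 3 rose with IL-31, where 8.22%, 9.94% and 5.18% of all genes rose and 9.63%, 9.8% and 1.2% fell. Tollip, which restrains signalling at the IL-1 receptor, rose by 0.74 ± 0.17 log2 with IL-4 (limma adjusted p = 0.00657), by 0.81 ± 0.17 with IL-13 (limma adjusted p = 0.00375) and by 0.86 ± 0.17 with IL-31 (limma adjusted p = 0.0193). Tab2 rose by 0.29, 0.32 and 0.28 log2 and Map3k7, the kinase TAK1 that Tab2 binds, by 0.24, 0.26 and 0.24 log2, in the same comparisons. The 3 IL-31 calls were lost without IL-31 library 3 or 5 or PBS library 1, 2 or 3, and those of Tab2 and Map3k7 also without IL-31 library 1 or 4. The Tab2 call for IL-4 was lost without IL-4 library 4 or 5 or PBS library 2. Without PBS libraries 1, 2 and 3 together, Tollip differed by 0.23 log2 for IL-4, 0.29 for IL-13 and 0.35 for IL-31. Its limma adjusted p-values were then 0.349, 0.281 and 0.648, and the calls of Tab2 and Map3k7 were lost too. Traf6, an adaptor ubiquitin ligase, rose by 0.49 ± 0.17 log2 with IL-13 (limma adjusted p = 0.0455, lost without IL-13 library 1, 3 or 5 or PBS library 1, 2 or 3). Nfkb2 fell by 0.38 ± 0.12 log2 with IL-4 (limma adjusted p = 0.0315, lost without IL-4 library 1, 3 or 5 or PBS library 2 or 3). Myd88, the adaptor shared by the family, differed by 0.04, 0.13 and 0.12 log2 and did not pass.

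Of 18 inflammasome and processing genes 15 were tested. The clearest fall was in Gsdmd, the pore protein through which mature IL-1β leaves the cell. Gsdmd had 2.40, 2.83, 2.86, 2.93 and 2.43 log2 CPM in IL-4 libraries, 3.02, 2.40, 2.11, 2.58 and 2.28 in IL-13 libraries, 3.44, 2.99, 2.93, 2.79 and 2.98 in IL-31 libraries, and 3.66, 3.73, 3.51, 3.56 and 3.84 in PBS libraries. All 15 cytokine libraries lay below all 5 PBS libraries, the downward separation that 5.89%, 5.01% and 1.43% of all genes showed. Gsdmd fell by 0.97 ± 0.17 log2 with IL-4 (limma adjusted p = 0.00145), by 1.18 ± 0.17 with IL-13 (limma adjusted p = 0.00114) and by 0.63 ± 0.17 with IL-31 (limma adjusted p = 0.0317). Its IL-31 call was lost without IL-31 library 2, 3, 4 or 5 or PBS library 1, 2 or 3. Without PBS libraries 1, 2 and 3 together, Gsdmd still fell by 1.01 log2 with IL-4 (limma adjusted p = 0.0226) and by 1.22 log2 with IL-13 (limma adjusted p = 0.0283). The monocyte and macrophage list held 15 genes, of which IL-4 lowered 7, IL-13 lowered 6 and IL-31 lowered 0, and the 6 skeletal muscle genes were lowered in 6, 6 and 0 cases. Of all genes 9.63%, 9.8% and 1.2% fell in these comparisons. The part of cell makeup in the Gsdmd values was not tested.

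Aim2, a DNA sensor of the inflammasome, fell by 0.70, 0.85 and 0.88 log2 (SE 0.24) in the IL-4, IL-13 and IL-31 comparisons, with limma adjusted p-values of 0.0435, 0.0158 and 0.0324. The IL-13 call of Aim2 held without any 1 library, the IL-4 call was lost without IL-4 library 1, 3, 4 or 5 or PBS library 1, 2, 3 or 5, and the IL-31 call without IL-31 library 1, 3, 4 or 5 or PBS library 1, 2 or 3. Nlrp10, a keratinocyte sensor, rose by 1.23, 1.06 and 1.29 log2 (SE 0.33) with limma adjusted p-values of 0.0147, 0.0296 and 0.0287. The IL-13 and IL-31 calls of Nlrp10 were each lost without PBS library 1, 2 or 3, and also without IL-13 library 3, 4 or 5 or IL-31 library 1, 3, 4 or 5. Pycard, the adaptor ASC, rose by 0.64 ± 0.19 log2 with IL-13 (limma adjusted p = 0.0254, lost without IL-13 library 3 or 4 or PBS library 2 or 3).

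Of 28 NF-κB and IL-1 inducible genes 21 were tested, and 5 fell with IL-4, 2 with IL-13 and 0 with IL-31, where 9.63%, 9.8% and 1.2% of all genes fell. The IL-13 count of 2 is near that share. With IL-31, where limma passed 0, 2 of the 21 had an unadjusted p under 0.05, as did 3921 of all 16461 tested genes. The median log2 fold change over the 21 was -1.54 for IL-4, -0.74 for IL-13 and -0.63 for IL-31. Nfkbiz, the nuclear cofactor of secondary NF-κB targets, fell by 0.82 ± 0.19 log2 with IL-4 (limma adjusted p = 0.00721) and by 0.71 ± 0.19 with IL-13 (limma adjusted p = 0.0137), and both calls held without any 1 library. Icam1, the adhesion molecule that leukocytes bind, fell by 0.90 ± 0.21 log2 with IL-4 (limma adjusted p = 0.00685) and by 0.74 ± 0.21 with IL-13 (limma adjusted p = 0.018, lost without IL-13 library 4). With IL-4 the monocyte chemokine Ccl2 fell by 1.97 ± 0.55 log2 (limma adjusted p = 0.019, lost without IL-4 library 5). Lcn2, a neutrophil and keratinocyte protein that sequesters siderophores, fell by 2.14 ± 0.73 log2 (limma adjusted p = 0.0484), and the NF-κB inhibitor Nfkbie by 0.96 ± 0.33 log2 (limma adjusted p = 0.0473). The Lcn2 call was lost without IL-4 library 2, 3, 4 or 5 or PBS library 1, 3, 4 or 5, and the Nfkbie call without IL-4 library 1, 2, 3 or 5 or PBS library 1, 2, 3 or 5. Of the pathway genes that changed, 14 for IL-4, 12 for IL-13 and 6 for IL-31, the number that passed was 3, 1 and 0 without PBS libraries 1, 2 and 3, namely Gsdmd for both IL-4 and IL-13, and Il1rl1 and Ccl2 for IL-4. In the PBS libraries then left, 4 and 5, Il1rl1 was 2.21 and 4.85 log2 CPM and Ccl2 1.80 and 4.51. For Il1rl1, PBS library 4 lay below IL-4 library 3 at 2.33, so both falls rested largely on PBS library 5. The neutrophil markers, of which 11 were tested, had median log2 fold changes of -2.60, -1.86 and -1.59, and 0 passed limma in each comparison. At an unadjusted p under 0.05 were 1, 0 and 0 of them, and 5191, 5547 and 3921 of all 16461 genes.

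No member separated the 3 cytokines from each other. In IL-4 against IL-13, IL-4 against IL-31 and IL-13 against IL-31, limma called 0 members and 0.0% of all genes. At an unadjusted p under 0.05 were 664, 1743 and 1200 of all 16461 genes and 0 of the 10 members. For 10 members, 0 lies near those shares. The widest gap among members was that of Il1b, at -1.78 log2 for IL-4 minus IL-31 (95% interval -5.99 to 2.42). For Il1f10 the differences between cytokines were 0.10, 0.14 and 0.04 log2, with intervals of -0.84 to 1.04 for IL-4 minus IL-13, -0.80 to 1.08 for IL-4 minus IL-31 and -0.89 to 0.98 for IL-13 minus IL-31. Il36rn passed against PBS with IL-4 and IL-13 and missed with IL-31, but compared directly it differed by -0.13 for IL-4 minus IL-31 (-0.92 to 0.66) and by 0.18 for IL-13 minus IL-31 (-0.61 to 0.97).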

How the data were processed

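Total RNA of ear pinnae was sequenced from 20 libraries in 4 groups of 5. Values as deposited by the authors are log2 CPM for 16669 genes in 1 table. The submitters' processing notes name edgeR with no version and GRCm38 as the build. No source used here gives the aligner, the counter or the strand setting. The lowest value, -2.684, corresponds to an offset of 0.1556 CPM, so fold changes understate those of low genes. Only 77.6 to 88.1% of low values were whole reads within 0.02, so no count test was run. Depth was estimated from the step between low values at 6.1 to 23.73 M reads (M, mega) per library, and read numbers given for a gene rest on that estimate. No 2 libraries held identical values. GENCODE M21 named 16644 identifiers.

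A gene was tested if 5 or more libraries reached a log2 value of 0 (16461 kept, 208 removed). A limma model with the 4 groups was fitted to the deposited values (lmFit, contrasts, eBayes with trend). The model code was also run on simulated data. The outcome of that run is not given here, so it cannot show that the model holds where spread differs between groups. p-values are two-sided and Benjamini-Hochberg adjusted over all tested genes, with a threshold of 0.05. The members and gene lists (71 pathway genes in 5 lists, and 10 marker lists) were chosen with earlier results of these data known. The text names all members, list genes that passed against PBS (up to 6 per list and comparison), and the 3 genes of most similar profile; other list genes named were chosen after their values were seen. Alternatives covered scaling, filter, offset, variance model, library weights, covariates, replicate block and left-out libraries. Nlrp1a, Elane, Prtn3, Il6, Il17c, Il23a, Csf2, Saa1, Defb4, Defb14, Ly6g, Camp, Ngp, Mpo, Trac and Cd8a were not analysed here. Statistics used limma 3.58.1 in R 4.3.3, and tables and plots used matplotlib 3.10.9, pandas 2.3.3 and numpy 2.4.6 in python 3.11.15.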

Additional observations from a re-analysis of the deposited data

Results flagged for a closer look

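Of 40 groups of 5 libraries (10 members in 4 groups), 4 held a library far from the other 4 by Dixon's 95% criterion, and chance alone flags about 1 in 20 groups. Il1b was 6.54 log2 CPM in IL-4 library 4, where the other IL-4 libraries had -0.63 to 0.85. Il1r2 was 7.2 log2 CPM in IL-13 library 1 and 7.18 log2 CPM in IL-31 library 3, where the others of each group had at most 6.20 and 6.37. These 3 libraries had neutrophil scores of 1.93, 3.01 and 2.40. Il36a was 1.52 log2 CPM in IL-4 library 1, whose cornified epidermis score of -0.35 was the lowest of the IL-4 libraries.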

How the results depend on the processing

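Of 660 member values under an alternative, 539 kept their direction and their side of the threshold, 32 lost a call in the same direction, 35 gained one and 54 changed sign, 2 of which (Il36rn for IL-4 and for IL-13, with the cornified epidermis score as covariate) also lost a call. Members changed, in the IL-4, IL-13 and IL-31 comparisons, numbered 0, 0 and 0 with only the 10 libraries compared, with the cornified epidermis score as covariate, without libraries of a neutrophil score above 0, or without PBS libraries 1, 2 and 3. The neutrophil score setting removed 1 of 5 IL-4, 2 of 5 IL-13, 3 of 5 IL-31 and 3 of 5 PBS libraries, so it also lost many libraries. Members changed numbered 5, 4 and 3 with array weights and 6, 5 and 2 with the neutrophil score as covariate. IL-4 gave 1 without trend, IL-13 gave 4 with quantile scaling, and IL-31 gave 2 under the stricter filter. Replicate numbers share only a number (10 of 30 pairs correlated above 0.1, from -0.236 to 0.486, and 5 were highest with their own); the replicate block gave 2, 4 and 2 members. Leaving out 1 library gave 1 to 5, 2 to 5 and 0 to 3 members, and 0 to 0 between cytokines. Of all genes, 1885 to 3553, 1995 to 4703 and 0 to 3029 then passed against PBS, and at most 304 between cytokines. Calls thus moved over the whole table. For the other settings, except without PBS libraries 1, 2 and 3, counts over all genes are not given here. Those member counts therefore cannot be read as particular to the members.

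Log2 differences that changed sign follow. With the cornified score as covariate they were, for IL-4, Il36g -0.214, Il36a -0.677, Il36rn -0.121, Il1rn -0.465, Il1a -0.603 and Il18 -0.196, for IL-13, Il36b -0.0202, Il36g -0.293, Il36a -1.05, Il36rn -0.0506, Il1rn -0.591, Traf6 -0.0796, Il1a -0.624, Nlrp10 -0.0808, Pycard -0.0581 and Il18 -0.227, and for IL-31, Il36g -0.348, Il36a -1.04, Il36rn -0.15, Il1rn -0.428, Il1a -0.497 and Il18 -0.399. With the neutrophil covariate Il1r2 was 0.0498 and Il1b 0.0006 (IL-4), and Il1b 0.371 (IL-31). Without libraries of a neutrophil score above 0, Il1r2 was 0.199 for IL-4, 0.0534 for IL-13 and 0.239 for IL-31, and Il1r1 was 0.0034 for IL-13. Without PBS libraries 1, 2 and 3, Il36g was -0.0813, Il36a -0.0408, Il1rn -0.175 and Il1a -0.287 for IL-4, Il36a -0.0036, Il1rn -0.204 and Il1a -0.153 for IL-13, and Il1r2 0.0083, Il36g -0.0754, Il36a -0.125, Il1rn -0.0736, Il1a -0.0767 and Il18 -0.034 for IL-31. Quantile scaling gave Il1rn -0.0374 for IL-13. With 1 library left out, Il1a ranged from -0.135 to 0.484 for IL-4 and from -0.0006 to 0.586 for IL-13, Il1r1 from -0.131 to 0.0302 for IL-4 and from -0.149 to 0.0124 for IL-31, Il1r2 from -0.5148 to 0.0311 for IL-31, and Il1rn from -0.294 to 0.275 for IL-4, -0.322 to 0.247 for IL-13 and -0.192 to 0.377 for IL-31. Dropping the 3 PBS libraries leaves 2 in that group; otherwise the cause was not tested. Depth limits Il1b and Il1f10, which rest on about 3 reads in IL-4 library 5 and 4 reads in PBS library 3.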

Other observations

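The marker lists whose changed genes were not counted above were tested against PBS with limma. Of 9 tested dendritic and Langerhans cell genes 1, Epcam, rose with each cytokine, where 8.22%, 9.94% and 5.18% of all genes rose. The list had median log2 fold changes of -0.17 for IL-4, -0.20 for IL-13 and 0.17 for IL-31. Of 6 fibroblast genes 0 fell with IL-4, 1 with IL-13 and 0 with IL-31, where 5, 3 and 0 had an unadjusted p under 0.05. Of 5 endothelial genes 2, 4 and 0 fell in the same comparisons, with 5, 5 and 0 at an unadjusted p under 0.05 and median log2 fold changes of -0.61, -0.68 and -0.17, where 9.63%, 9.8% and 1.2% of all genes fell. Of 5 tested T cell genes 0 passed and 0 had an unadjusted p under 0.05, and of 5 mast cell genes 0 passed, with 0, 4 and 0 at an unadjusted p under 0.05.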
